A study of Rattus norvegicus with 16 samples.

Results

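A pair of genes of the sarcoplasmic reticulum, Ryr2 (ENSRNOG00000017060) and Atp2a2 (ENSRNOG00000001285), were followed in the RNAseq libraries of rat hearts, as 2 of the 32545 genes listed and of the 13607 genes tested. The pair was chosen with its measured levels in DOX high and saline control hearts already known. The difference between the groups and the ratio of both genes are therefore given as descriptions, without a test. The hearts came from male Wistar rats, 6 to 8 weeks old when the 6-week protocol began. The DOX high group (n = 6) received weekly intravenous injections of 3 mg per kg doxorubicin (DOX), an anthracycline used against cancer, on 5 occasions (cumulative dose 15 mg per kg). The saline control group (n = 10) received intravenous saline, for which the labels give 5 weekly injections and the methods 6. Hearts were excised after the last imaging at week 6, and each library came from a piece of snap-frozen heart tissue of 1 rat, so that fewer cardiomyocytes and less RNA per cardiomyocyte cannot be told apart.

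In each heartbeat, calcium that enters the cardiomyocyte opens the ryanodine receptor RyR2, encoded by Ryr2, and this channel releases the calcium stored in the sarcoplasmic reticulum, which triggers contraction. The pump SERCA2, encoded by Atp2a2, returns the calcium into the sarcoplasmic reticulum, so that the muscle relaxes and the store is refilled for the next beat. Ryr2 is the main release channel and Atp2a2 the main calcium pump of the cardiac sarcoplasmic reticulum, and the balance of release and uptake is much studied in heart failure.

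The deposited tables give genes by Ensembl identifier without symbols, and the table used for names held none of these identifiers. The symbols of the pair were given with their identifiers, and other genes of calcium handling (phospholamban, calsequestrin, the sodium-calcium exchanger and further genes) and markers of cardiomyocytes and other cell types were not analysed here. The gene lengths behind the deposited values could be recovered from counts divided by TPM (a level per length of gene that sums to the same total in each library). These quotients were multiplied by a factor for each library, chosen so that lengths came out whole. The products were then whole numbers for all 23582 genes with a count, within 0.001 of a base. The exon length was 14817 bases for Ryr2 and 6620 bases for Atp2a2, which makes Ryr2 the 34th longest of the genes tested.

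The promoters of both genes are shown as background, and whether they bear on the levels of the pair was not tested. RefSeq places the 250 bases before the start of Ryr2 at chr17:63081277-63081526 and those of Atp2a2 at chr12:39733269-39733518 (GRCr8, plus strand, 5′ to 3′). Capitals mark the GC box, GGGCGG or its reverse complement.

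Ryr2: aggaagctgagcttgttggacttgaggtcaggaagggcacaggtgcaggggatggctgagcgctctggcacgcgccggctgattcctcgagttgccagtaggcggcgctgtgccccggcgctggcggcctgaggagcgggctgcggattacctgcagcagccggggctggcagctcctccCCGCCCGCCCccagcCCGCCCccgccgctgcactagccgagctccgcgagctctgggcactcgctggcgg

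Atp2a2: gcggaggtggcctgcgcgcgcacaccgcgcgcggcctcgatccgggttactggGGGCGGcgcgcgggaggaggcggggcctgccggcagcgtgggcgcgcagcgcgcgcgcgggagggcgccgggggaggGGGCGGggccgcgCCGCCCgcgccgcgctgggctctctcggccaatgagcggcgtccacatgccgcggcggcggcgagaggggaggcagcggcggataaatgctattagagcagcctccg

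Both promoters were rich in G and C, with 72.0% in Ryr2 and 80.0% in Atp2a2, where the median of 33469 rat promoters was 51.2%. Each held 3 GC boxes on either strand, 2 of which overlap in Ryr2. A GC box was found in 33.1% of all promoters when the 50 bases after the start were included, and 8.97% held at least 3. The E-box CANNTG occurred once in each promoter and in 72.1% of all promoters. Neither promoter held TATAAA, which 14.2% of promoters held, or AGATAA, which 11.6% held, on either strand.

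Library totals ranged from 13784896 to 16842418 counts in saline control and from 15369246 to 18025615 in DOX high hearts. Ryr2 had at least 2541 counts and Atp2a2 at least 68559 counts in every library, so counting error was at most 1.98% and 0.382%, far under the spread between rats. Counts were scaled with edgeR's TMM factors to CPM, counts relative to the scaled library total. Leaving out saline rat 37 raised the number of genes called between the groups from 851 to 1762. DOX high rat 32 had the highest TMM factor (1.36) and the lowest share of counts on its 10 most abundant genes (18.7%). Results are therefore also given without rat 37 and without rat 32. Saline rat 6 came next after rat 32 on both measures (1.20 and 22.0%), and was left out only in the fits that left out each rat.

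Ryr2 was lower in every DOX high heart than in any saline control heart. In saline control hearts its level ranged from 459 CPM in rat 37 to 1166 CPM in rat 36, with a median of 879 CPM. In DOX high hearts it ranged from 107 CPM in rat 32 to 354 CPM in rat 39, with a median of 299.7 CPM. The lowest saline hearts were rats 37, 9 and 10, at 459, 497 and 559 CPM, and these still lay above the highest DOX high heart.

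The group means of Ryr2 were 793 ± 227 CPM (SD, n = 10) and 269 ± 92.3 CPM (SD, n = 6), a log2 fold change of -1.56 (standard error 0.26), which left 33.9% of the saline level. Ryr2 had the 109th lowest log2 fold change of the 13607 genes tested, and the 47th lowest of 8746 expressed genes (mean log2 CPM no lower than 3). The log2 fold change was -1.63 without saline rat 37, -1.40 without DOX high rat 32 and -1.67 among rats 30 to 39 alone.

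Atp2a2 was also lower on average in DOX high hearts, but by less, and the groups overlapped. Saline control hearts ranged from 6579 CPM in rat 37 to 12596 CPM in rat 6, with a median of 9736 CPM. DOX high hearts ranged from 2887 CPM in rat 32 to 8401 CPM in rat 31, with a median of 6841 CPM. Only rats 32 and 38 lay below all saline hearts, the other 4 DOX high hearts lay inside the saline range, and 7 of the 10 saline hearts lay above the highest DOX high heart.

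The means of Atp2a2 were 9428 ± 1815 CPM (SD, n = 10) in saline control and 6331 ± 1937 CPM (SD, n = 6) in DOX high hearts. The log2 fold change was -0.57 (standard error 0.21), which left 67.2% of the saline level. It was -0.62 without saline rat 37, -0.43 without DOX high rat 32 and -0.57 among rats 30 to 39 alone.

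**Figure D1:**
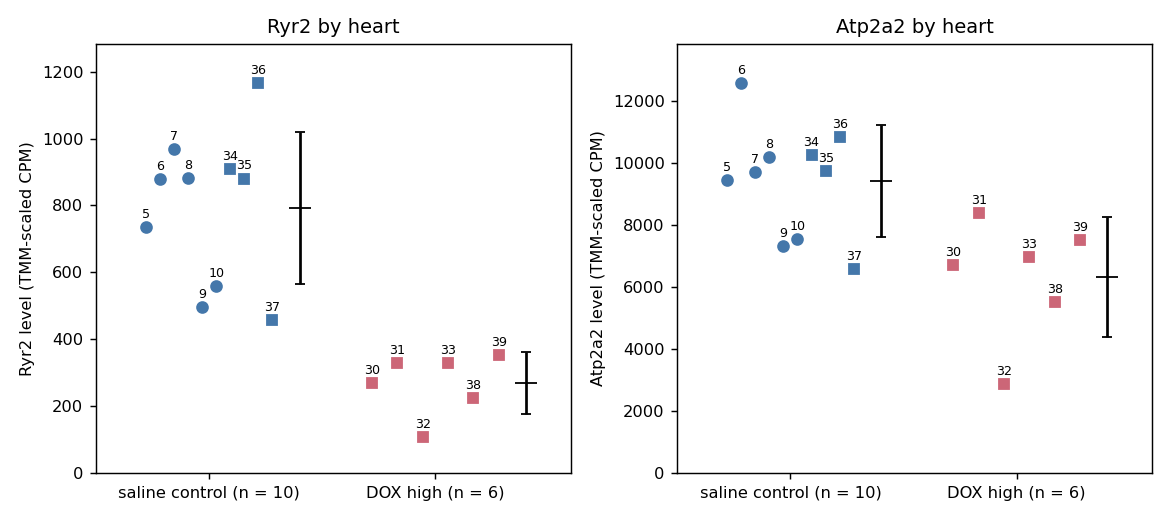
TMM-scaled CPM of Ryr2 (left) and Atp2a2 (right) in each heart, with the rat number above each point, circles for rats 5 to 10 and squares for rats 30 to 39. Black marks are the group mean and SD. For Ryr2 the DOX high hearts (107 to 354 CPM) all lie below the saline hearts (459 to 1166 CPM), and for Atp2a2 the groups overlap.

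The test across all genes (quasi-likelihood test of edgeR at a threshold of 0.05 after Benjamini-Hochberg adjustment) is given for its background. Calls of the pair in this fit are not given, because the pair was chosen on this contrast. The background was 6.25% of genes called in either direction and 2.24% called lower (305 of 851 calls, or 748 of 1574 with DESeq2). Every DOX high heart was below every saline heart in 0.294% of genes, Ryr2 among them. Since Ryr2 was chosen on this contrast, nothing is read from these counts. In edgeR, 0 genes were called when the fit held rats 30 to 39 alone, where 1891 had an unadjusted p under 0.05 and DESeq2 was not run. With the number block (rats 5 to 10 or 30 to 39) as a covariate 2 genes passed and neither was of the pair.

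Ranked by TPM within a heart, a measure that needs no scaling between libraries, Atp2a2 was among the most abundant genes throughout. Its rank lay between 27th and 69th in saline control hearts and between 57th and 130th in DOX high hearts. Ryr2 stood much lower, at ranks 704 to 1912 in saline control and 2459 to 6347 in DOX high hearts, so its ranks did not overlap between the groups. In TPM, Ryr2 was at 73.0 ± 28.9 (SD, n = 10) in saline control and 24.3 ± 7.04 (SD, n = 6) in DOX high hearts. Atp2a2 was at 1946 ± 685 TPM (SD, n = 10) and 1284 ± 307 TPM (SD, n = 6).

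The ratio of Ryr2 to Atp2a2 did not overlap between the groups. Both genes were measured in the same library, so the ratio does not depend on how libraries are scaled. In saline control hearts the TPM of Ryr2 was between 3.03% (rat 9) and 4.80% (rat 36) of that of Atp2a2, with a median of 3.67%. In DOX high hearts it was between 1.66% (rat 32) and 2.11% (rat 33), with a median of 1.81%. The lowest saline heart was 1.44 times the highest DOX high heart.

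Put the other way, the TPM of Atp2a2 was 27.5 ± 4.30 times that of Ryr2 in saline control (SD, n = 10) and 53.8 ± 5.29 times in DOX high hearts (SD, n = 6). The mean log2 ratio of Ryr2 to Atp2a2 was -4.77 ± 0.23 (SD, n = 10) and -5.74 ± 0.14 (SD, n = 6), a difference of -0.98 (standard error 0.11), or 50.8% of the saline ratio. The difference was -1.0 without saline rat 37, -0.94 without DOX high rat 32 and -1.07 among rats 30 to 39 alone.

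The libraries lowest in CPM lay close to other hearts of their group in the ratio. Saline rat 37 had the lowest saline level of both genes in TMM-scaled CPM (in TPM it was rat 9, with 38.9 for Ryr2 and 1282 for Atp2a2, where rat 37 had 46.0 and 1476), and its ratio of 3.11% lay with saline rats 6 (3.11%) and 9 (3.03%). DOX high rat 32 had the lowest CPM and TPM of both genes, and its ratio of 1.66% was close to that of rat 31 (1.75%).

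**Figure D2:**
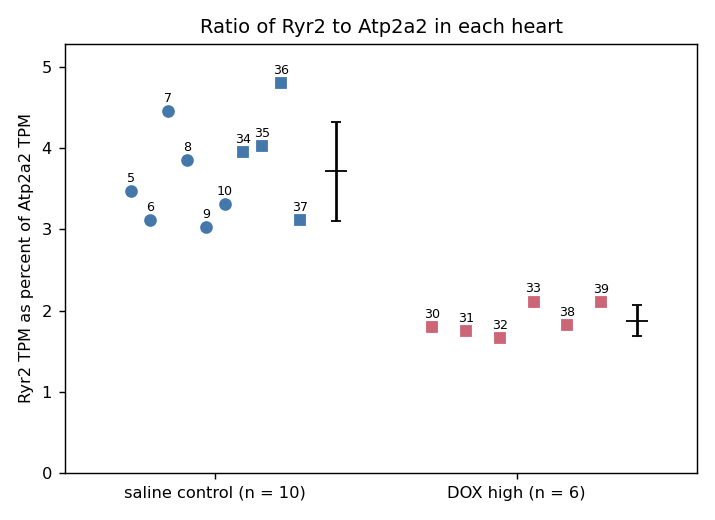
TPM of Ryr2 as a percent of the TPM of Atp2a2 in each heart, marked by rat number (circles, rats 5 to 10; squares, rats 30 to 39), with the group mean and SD in black. DOX high hearts lie between 1.66% and 2.11% and saline hearts between 3.03% and 4.80%.

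Since the ratios of the groups did not overlap, a DOX high heart with the Atp2a2 level of a saline heart had less Ryr2. The examples below restate this in levels, and these hearts differed in Ryr2 by less than the group means did. DOX high rat 39 had 7508 CPM of Atp2a2, beside 7540 CPM in saline rat 10. Its Ryr2 level was 354 CPM, where that of saline rat 10 was 559 CPM. DOX high rat 30 had 6715 CPM of Atp2a2 and 270.2 CPM of Ryr2, beside 6579 CPM and 459 CPM in saline rat 37.

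Set against Atp2a2 in the same way, 3 of the other 13606 tested genes, or 0.022%, had a ratio in every DOX high heart below that in every saline heart. One was Ryr2. The others were ENSRNOG00000025868, at 16.5 ± 9.01 CPM (SD, n = 10) in saline control and 4.01 ± 1.36 CPM (SD, n = 6) in DOX high hearts, and the weakly expressed ENSRNOG00000042516, at 5.71 ± 4.20 and 1.15 ± 0.370 CPM. They are named here after their values were seen. In the other direction, 80 genes had a ratio to Atp2a2 that was higher in every DOX high heart, and Atp2a2 itself was lower on average in DOX high hearts. By the mean log2 ratio to Atp2a2, Ryr2 had the 32nd lowest difference of 13503 genes with a count in every heart. The ratio of Ryr2 to 56.7% of these genes was lower in every DOX high heart, as was the CPM of Ryr2 itself. Since the pair was chosen with its levels in each heart known, nothing is read from these counts and ranks.

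Within each group, hearts with more Atp2a2 had more Ryr2. The pair was chosen on the difference between the groups, but its values in each heart were known by then, and the p-values below take no account of that choice. Each p-value tests only for any correlation at all. How many other genes reach as high a correlation with Ryr2 within a group was not counted, and another gene came close over both groups, as given below. Across the 10 saline control hearts Pearson's r of the log2 CPM was 0.893 (two-sided permutation test, p = 0.00117; Benjamini-Hochberg adjusted over 4 values, p = 0.00468). Spearman's rho was 0.745 (permutation p = 0.0174, adjusted p = 0.0174). Across the 6 DOX high hearts r was 0.983 (exact permutation, two-sided: p = 0.00694, adjusted p = 0.0139) and rho was 0.943 (exact permutation p = 0.0167, adjusted p = 0.0174).

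Without the hearts farthest from the median of Ryr2, r was 0.730 in saline control (without rats 9 and 37) and 0.574 in DOX high hearts (without rats 32 and 38). Spearman's rho without the same hearts was 0.5 in saline control and 0.8 in DOX high hearts. In DOX high hearts r fell less without rat 32 alone, and without rat 38 alone it stayed near the 0.983 of all 6 hearts. Without rat 32 alone r was 0.873 (exact permutation test, adjusted p = 0.0778), and without rat 38 alone r was 0.983 (adjusted p = 0.0556), where 5 hearts remain. The adjusted permutation p of rho also lay above 0.05 without saline rat 5, 9, 10 or 37 (rho 0.65, p up to 0.0679) and, by the exact test, without DOX high rat 30, 32, 33 or 38 (rho 0.9, p = 0.0833). The points of one heart share a library and its scaling factor.

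**Figure D3:**
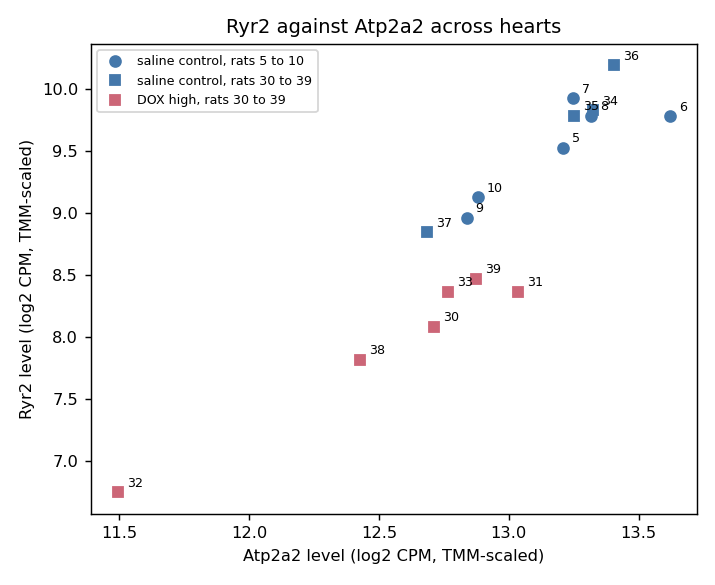
Log2 CPM of Ryr2 against log2 CPM of Atp2a2, 1 point a heart with its rat number, saline control in blue and DOX high in red (circles, rats 5 to 10; squares, rats 30 to 39). Within each group the points rise together, and DOX high rats 30 and 39 lie below saline rats 37 and 10, which have a like Atp2a2 level.

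No expressed gene tracked Ryr2 more closely than Atp2a2 did. With each group's mean subtracted, their log2 CPM over the 16 hearts had a Pearson correlation of 0.938, the highest for Ryr2 among the 8746 expressed genes. The next was ENSRNOG00000004172, with 0.930. For Atp2a2, the closest genes were ENSRNOG00000003398 (0.974) and ENSRNOG00000001912 (0.940), and Ryr2 was 4th. In fits that each left out 1 rat the correlation of the pair was between 0.885 and 0.957, and Atp2a2 held 1st to 3rd place for Ryr2 except without saline rat 37, where it was 21st with a correlation of 0.930.

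The same closeness held in count ratios, which need no scaling. The SD of the log2 count ratio of Ryr2 to a gene within groups was 0.20 for Atp2a2, the smallest of 8736 genes, whose median was 0.56. Other genes came near, with 5 genes between 0.20 and 0.25, Atp2a2 among them, and 20 between 0.25 and 0.3. Without saline rat 37 the SD for Atp2a2 was 0.20 and the 9th smallest. Without DOX high rat 32 it was 0.21 and the 3rd smallest, and without any other single rat it was the smallest. These are descriptions of the 16 hearts, with no test.

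**Figure D4:**
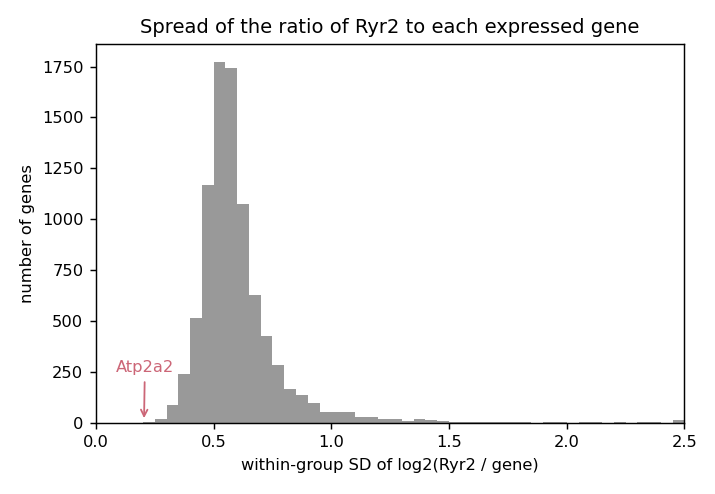
Histogram of the within-group SD of the log2 ratio of Ryr2 to each of 8736 expressed genes in the 16 hearts (x axis, log2 units; y axis, number of genes; the last bar also holds larger values). Atp2a2, marked by the arrow at 0.20, has the smallest SD, and the median gene has 0.56.

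The saline control rats fall into rats 5 to 10 and rats 34 to 37 by number, and DOX high rats carry numbers 30 to 39, so the levels were compared by number within saline hearts, a contrast other than the one on which the pair was chosen. Ryr2 was at 753 ± 191 CPM (SD, n = 6) in rats 5 to 10 and 853 ± 293 CPM (SD, n = 4) in rats 34 to 37, and no difference was detected (log2 difference 0.14; two-sided exact permutation test, p = 0.629, adjusted over 3 values p = 0.943). Atp2a2 was at 9473 ± 1934 CPM (SD, n = 6) and 9361 ± 1908 CPM (SD, n = 4) (log2 difference -0.02; exact permutation p = 0.943, adjusted p = 0.943). The ratio was 3.54% ± 0.536 (SD, n = 6) and 3.98% ± 0.691 (SD, n = 4) (log2 difference 0.16; exact permutation p = 0.295, adjusted p = 0.886). In the edgeR fit of these saline groups neither gene was called, against a background of 0% of 13413 genes (591 with an unadjusted p under 0.05, and 22 genes called by DESeq2).

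Since Ryr2 has one of the longest transcripts, fold changes were set against exon length. The longest 5% of genes tested (681 genes of 6543 to 29464 bases, which hold both Ryr2 and Atp2a2) had a median log2 fold change of -0.03, and all genes tested had one of -0.0047. Over the alternatives the median of the long genes was between -0.09 and 0.04. The 100 longest genes, Ryr2 among them, had a median of -0.04. Over the alternatives theirs was between -0.13 (number block as a covariate) and 0.03 (no filter on low counts), with -0.12 among rats 30 to 39 alone. Among the longest 5%, 17 genes were called higher and 17 lower in DOX high hearts, and Ryr2 had the 8th and Atp2a2 the 37th lowest log2 fold change. The median level of these long genes in a heart, relative to the saline mean, was between -0.19 and 0.19 log2 units in saline control and between -0.11 and 0.16 in DOX high hearts. Saline rat 9 was the lowest heart in the long genes (-0.19), and it was the lowest saline heart in Ryr2 by TPM and the next to lowest by TMM-scaled CPM. Saline rat 37, the lowest saline heart in Ryr2 by TMM-scaled CPM, was at 0.08 in the long genes, and DOX high rat 32 was at 0.16. The part of transcript length in the difference of Ryr2 was not tested.

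**Figure D5:**
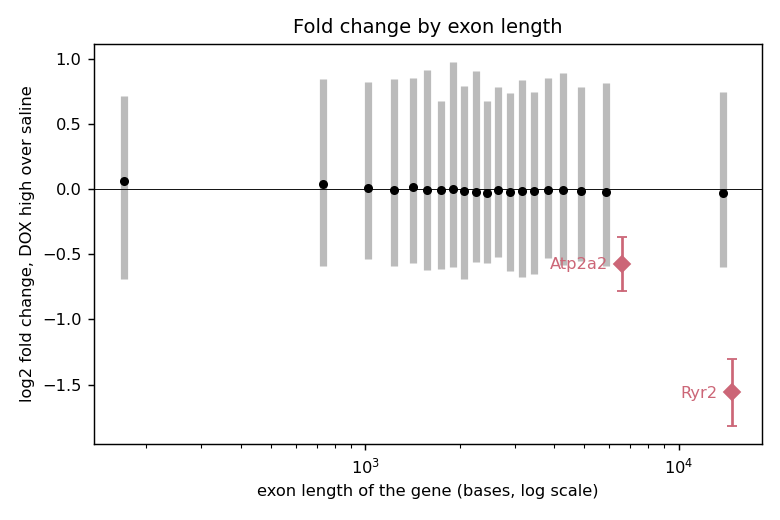
Log2 fold change (DOX high over saline control) against exon length on a log scale for 20 bins of genes tested. Black points are bin medians, placed at the geometric mean of the bin's shortest and longest gene, grey bars run from the 5th to the 95th percentile, and red diamonds with standard error bars are Ryr2 (-1.56) and Atp2a2 (-0.57), while bin medians stay between -0.03 and 0.06.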

How the data were processed

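PolyA-enriched heart RNA was made into strand-specific libraries and sequenced as read pairs. The authors aligned them to Rnor_6.0 with HISAT2 and obtained the deposited counts per gene over exons with featureCounts (Subread 1.5.0) at default settings, which ignore strand and cannot separate a gene from an antisense partner. The deposited TPM values equal these counts scaled by exon length and library. The pair and lists were chosen with earlier results of these data known.

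Groups came from the labels and each library is 1 rat. Genes kept by filterByExpr were scaled by TMM and tested by quasi-likelihood in edgeR 4.0.16 (R 4.3.3), with no covariate and Benjamini-Hochberg adjustment. Standard errors were log2 fold changes over the root of F, and log2 CPM had a prior count of 2. The code was tested on simulated data. Permutation tests between the saline groups used scipy 1.17.1 and were exact. Those of the correlations were coded with numpy 2.4.6, exact for DOX high hearts and with 100000 resamples for saline control hearts. Alternatives were DESeq2 1.42.0, scaling by upper quartiles, an unfiltered table, a minimum of 10 counts everywhere, limma 3.58.1 on TPM with pseudocounts of 1 and 0.1, fits of rats 30 to 39 or with the block of rat numbers, and leaving out each rat. Named genes were the pair, the 2 genes most correlated with each and lists of calcium and cell type genes, which had no matching identifiers. Names chosen after their values were seen are marked.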

Additional observations from a re-analysis of the deposited data

How the results depend on the processing

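The log2 fold changes of Ryr2 (-1.67 to -1.40) and Atp2a2 (-0.67 to -0.43) and the difference in log2 ratio (-1.07 to -0.93) kept their direction and moved by less than the SD between rats in the 24, 24 and 19 alternatives run for them. The count of 851 differing genes was 1574 with DESeq2, 255 and 285 with limma (pseudocounts 1 and 0.1), 0 in edgeR for rats 30 to 39 alone (1891 with an unadjusted p under 0.05) and 2 with the number block. Leaving out 1 rat gave 345 (DOX high rat 38) to 1762 (saline rat 37), and it moved the count by over 1.5 times also for saline rats 7 (402), 8 (434), 34 (517) and 36 (524) and DOX high rats 33 (436) and 39 (479). These fits hold fewer hearts, and otherwise the cause was not tested. Between saline rats 5 to 10 and 34 to 37, the log2 difference of Atp2a2 was 0.13 on log2 TPM and -0.10 to 0.14 when 1 rat was left out, and that of Ryr2 was -0.032 (without saline rat 36) to 0.42. When 1 rat was left out, rho within saline hearts was 0.65 to 0.90 (adjusted permutation p up to 0.0679), and within DOX high hearts r was 0.873 to 0.992 and rho 0.9 to 1 (adjusted exact permutation p up to 0.0833). Leaving out each rat for the closeness of the pair was a choice made after seeing the data. In this design, no paired analysis was possible because DOX high and saline hearts came from different rats. The paper states that rats were matched by weight into cages and that whole cages were randomized to treatment. The cage of a rat was not used here, and each rat was taken as independent. Alternatives for other calcium genes were not run, since no symbols matched.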
